A study of Mus musculus with 18 samples.

Results

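The miR-23/27/24 clusters are a pair of genomic clusters, each of which encodes a miR-23, a miR-27 and a miR-24 hairpin. The members were chosen by name, as arms of these hairpins, and the remaining arms are described below with their values. They number 8 of the 1251 microRNA entries: mmu-miR-23a-3p, mmu-miR-27a-3p, mmu-miR-27a-5p and mmu-miR-24-2-5p from the a cluster, mmu-miR-23b-3p, mmu-miR-27b-3p and mmu-miR-27b-5p from the b cluster, and mmu-miR-24-3p, which both clusters encode (the prefix, for mouse, is left out from here on). All 8 were detected in all 18 libraries and were tested, so that none was lost to a filter on low values.

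The libraries came from 6 female SKH-1E Hairless littermates, numbered mouse 2, 3, 7, 8, 9 and 10, an outbred line that is very prone to skin tumours after ultraviolet exposure. Every mouse had been irradiated chronically with ultraviolet light from solar simulators, which gave both UVB and UVA. Each mouse gave nonlesional, chronically irradiated skin (CHR), a papilloma (PAP) and a cutaneous squamous cell carcinoma (cuSCC), with 6 libraries per sample type. No unirradiated skin was analysed here, so CHR is the reference and has itself been exposed to the carcinogen. The tissues were extracted whole, and a member can therefore differ because fewer cells express it or because each cell holds less of it, which cannot be told apart.

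A microRNA is cut from a hairpin, and either arm of the hairpin (5p or 3p) can be loaded into an Argonaute protein, which then represses messenger RNAs that pair with the seed, bases 2 to 8 of the loaded arm. Hairpins of a cluster are usually transcribed together, after which each arm can be processed and degraded at its own rate. As background, miR-23 and miR-27 are known for their part in the growth of blood vessels, miR-27 for restraining the formation of fat cells, miR-23a for repressing glutaminase and miR-24 for promoting the differentiation of keratinocytes.

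The mature sequences are shown because the bases that differ between members decide which of them can be told apart by their reads. Of the 8 members, 7 were found in the RefSeq table of GRCm38.p6, and the seed is in capitals. miR-23b-3p was not found there. Whether its reads can be told from those of its paralog miR-23a-3p was therefore not checked, and their division is uncertain too.
miR-23a-3p: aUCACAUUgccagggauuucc
miR-27a-3p: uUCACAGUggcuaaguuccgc
miR-27b-3p: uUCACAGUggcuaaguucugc
miR-24-3p: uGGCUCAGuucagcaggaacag
miR-24-2-5p: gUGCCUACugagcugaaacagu
miR-27a-5p: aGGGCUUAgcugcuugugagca
miR-27b-5p: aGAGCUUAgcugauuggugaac
The 3p arms of miR-27a and miR-27b share their seed and 20 of 21 bases, and differ by C19U (miR-27a-3p first, counted from 1 at the 5′ end). A read that ends before position 19 matches both, so the division of reads between these paralogs is uncertain. The 5p arms of the same hairpins differ at 8 of 22 bases, including G3A in the seed. The seeds of miR-23a-3p and miR-27a-3p are alike in 6 of 7 bases, with U7G as the difference. The seed of miR-24-3p was shared by 4 other entries of the reference table (miR-5124b, miR-6369, miR-6410 and miR-6413), each detected in 0 libraries.

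On GRCm38, the a cluster lies on the plus strand of chromosome 8, where Mir23a (chr8:84208518-84208592), Mir27a (chr8:84208672-84208758) and Mir24-2 (chr8:84208815-84208921) fit within 404 bases. It lies outside protein-coding genes, and the last 2 bases of Mir24-2 overlap an exon of the long noncoding RNA Gm26532. The b cluster lies on the plus strand of chromosome 13 within 792 bases, with Mir23b at chr13:63300484-63300557, Mir27b at chr13:63300712-63300784 and Mir24-1 at chr13:63301208-63301275. All 3 of its hairpins are inside 2010111I01Rik, a protein-coding gene on the same strand, and inside Fancc on the opposite strand. Mir23b is intronic in every annotated transcript of 2010111I01Rik that spans it. Mir27b falls inside a UTR exon of 1 transcript (chr13:63300605-63300793), and Mir24-1 inside a UTR exon of another (chr13:63301122-63301306). miR-24-3p is identical at chr8:84208875-84208896 and chr13:63301251-63301272, so its reads cannot be assigned to a cluster.

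**Figure D1:**
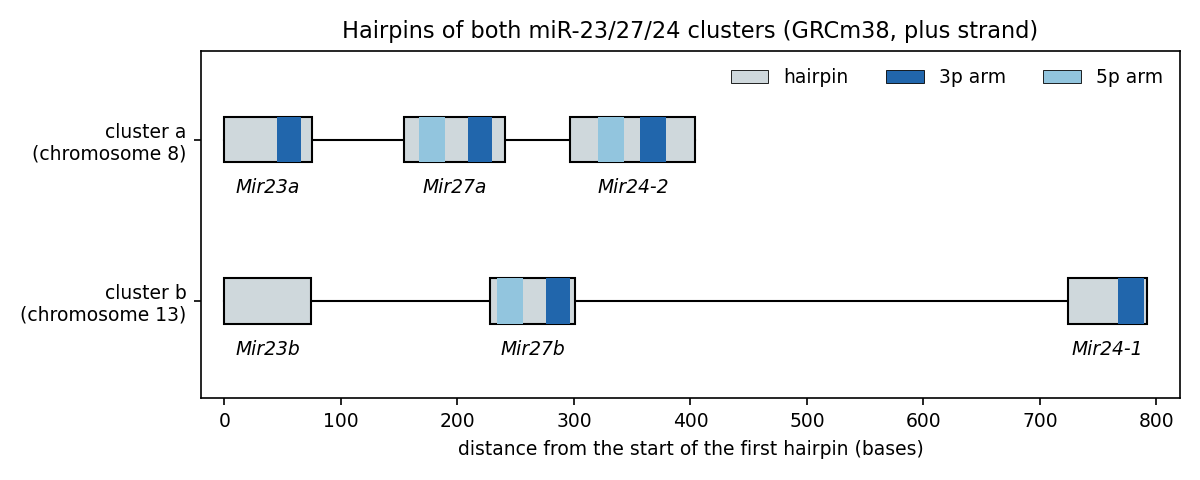
The hairpins of the a cluster (top) and the b cluster (bottom) are drawn to scale against the distance from the start of the first hairpin in bases, with 3p arms in dark blue and 5p arms in light blue where RefSeq places them. The a cluster spans 404 bases and the b cluster 792 bases.

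Levels are given as log2 ppm, where the ppm of a microRNA are relative to the usable reads of its library. The values of a library had been quantile normalized, so that a level stands for a place in the ranking of that library. A value of 3.32, or 10 ppm, was the lowest in the table and was read as not detected. A mature microRNA is read whole, so levels need no correction for length. The number of entries detected per library was 200 to 328 for CHR, 163 to 281 for PAP and 236 to 365 for cuSCC. The read depth of single libraries is unknown. The cuSCC of mouse 10 was most like the PAP of the same mouse, and calls were therefore also made without either library.

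miR-27b-3p was the highest member in all 18 libraries. Its mean level over the libraries was 15.84, against 13.66 for miR-23b-3p, which stood below it in 18 of 18 libraries by 2.18 ± 0.85 (SD, log2). miR-23a-3p followed at 12.67, lower than miR-23b-3p in 17 of 18 libraries. miR-24-3p (11.15) and miR-27a-3p (11.14) did not differ beyond their spread, with a mean difference of 0.00 ± 0.39 and miR-24-3p higher in 11 of 18 libraries. The 5p arms were far lower. miR-27b-5p stood at 7.96, miR-24-2-5p at 7.61 and miR-27a-5p at 7.12, and neighbours in this order overlapped, with the first above the second in 13 of 18 libraries for both steps. In the a cluster, therefore, miR-23 was the highest arm, while in the b cluster it was miR-27.

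The remaining arms were almost absent. miR-23a-5p was detected in 2 libraries, at up to 3.82, and miR-23b-5p in 2, at up to 3.69. miR-24-1-5p, the 5p arm of the b cluster's miR-24 hairpin, was detected in 1 library, just above the lowest value of the table, whereas miR-24-2-5p was detected in all 18. The 3 arms of the miR-3074 hairpins, which lie opposite both miR-24 hairpins, were detected in 0 libraries.

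In PAP against CHR, miR-27b-3p, miR-27a-3p and miR-24-3p rose, and neither miR-23 arm passed the test. With limma and Benjamini-Hochberg adjustment over the 293 tested microRNAs, 3 of 8 members passed an adjusted p of 0.05, all of them higher in PAP, where 14% of all tested microRNAs were called higher. The median log2 fold change of the members was 0.72 and that of all tested microRNAs was -0.23, and 7 of 8 members had a positive value, as did 42.7% of all tested microRNAs. The median of all tested microRNAs was 0.16 among those detected in all 18 libraries, as all members were, and 0.44 with each undetected value raised to the lowest value its library detected. When the 123 microRNAs detected in all 18 libraries were tested alone, limma called 52 in either direction, and 4 of 8 members, all higher. The shares over all 293 tested microRNAs, here and below, include entries undetected in some libraries.

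miR-27b-3p had a level of 14.90 to 15.24 in the CHR libraries (median 15.24), of 15.69 to 16.99 in PAP (median 16.17) and of 15.03 to 16.99 in cuSCC (median 16.26). In CHR, 5 of 6 libraries held the same value, since miR-27b-3p was in the same place of their ranking, the 15th. Every PAP library was above every CHR library, a separation that 1 of 8 members and 6.48% of the tested microRNAs showed. The difference was 1.05 (log2, SE 0.26, 95% interval 0.50 to 1.61), a fold of 2.08, with an adjusted p of 0.00851 in limma, and miR-27b-3p was higher in 6 of 6 mice. By rank, it moved from 15 to 18 in CHR to 5 to 12 in PAP.

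miR-27a-3p, its paralog of the a cluster, had a level of 10.14 to 11.03 in CHR (median 10.54), of 10.74 to 12.44 in PAP (median 11.42) and of 10.48 to 12.30 in cuSCC (median 11.34). PAP and CHR overlapped only through the PAP of mouse 9, with 5 of 6 PAP libraries above every CHR library. The difference was 0.95 (log2, SE 0.30), with an adjusted p of 0.0313 in limma and a higher level in PAP in 6 of 6 mice. Without the PAP of mouse 10 it was 0.76, with an adjusted p of 0.0542.

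miR-24-3p, the arm encoded by both clusters, had a level of 10.09 to 11.49 in CHR (median 10.82), of 10.82 to 12.06 in PAP (median 11.69) and of 10.82 to 11.82 in cuSCC (median 11.03). In PAP, 4 of 6 libraries were above every CHR library and 5 of 6 mice had the higher level in PAP. The difference was 0.83 (log2, SE 0.30, adjusted p = 0.0497 in limma). With the mouse as a replicate block its adjusted p was 0.0761, so that 2 members passed, and by the exact permutation test it was 0.0546.

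The miR-23 arms passed the limma test in none of the 3 comparisons. miR-23a-3p had a level of 12.58 to 13.33 in CHR (median 12.72), of 11.69 to 13.43 in PAP (median 12.94) and of 12.19 to 12.87 in cuSCC (median 12.48). miR-23b-3p had a level of 13.33 to 14.22 in CHR (median 13.65), of 12.64 to 14.90 in PAP (median 14.05) and of 12.96 to 13.65 in cuSCC (median 13.22). Both covered a wider range in PAP than in the other sample types, and the groups overlapped. The log2 fold change in PAP against CHR was -0.05 for miR-23a-3p (95% interval -0.75 to 0.64) and 0.24 for miR-23b-3p (-0.54 to 1.01), with adjusted p of 0.915 and 0.643 in limma. Without the PAP of mouse 10, which had the lowest level of miR-23b-3p, its log2 fold change was 0.50, and without both samples of mouse 10 it was 0.60.

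The 5p arms are usually the minor products of these hairpins. miR-27a-5p had a level of 5.68 to 7.80 in CHR (median 6.36), of 6.90 to 8.71 in PAP (median 7.35) and of 6.49 to 8.22 in cuSCC (median 7.26). Its log2 fold change in PAP against CHR was 1.05 (SE 0.41), with an adjusted p of 0.0727 in limma. With a lowest value of 100 ppm for the whole table it was 0.65, and 0.52 in place of 0.89 in cuSCC against CHR. miR-27b-5p had a level of 7.25 to 8.02 in CHR (median 7.59), of 6.99 to 9.52 in PAP (median 8.0) and of 7.10 to 8.69 in cuSCC (median 8.26). Its log2 fold change in PAP against CHR was 0.50 (SE 0.37, adjusted p = 0.318 in limma). At the study's own thresholds, a fold of 1.5 and an unadjusted p under 0.05, here from an unmoderated test with equal variances, a choice that the study's methods do not state, 4 of 8 members were higher in PAP (the 3 above and miR-27a-5p), against 16.4% of the tested microRNAs.

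**Figure D2:**
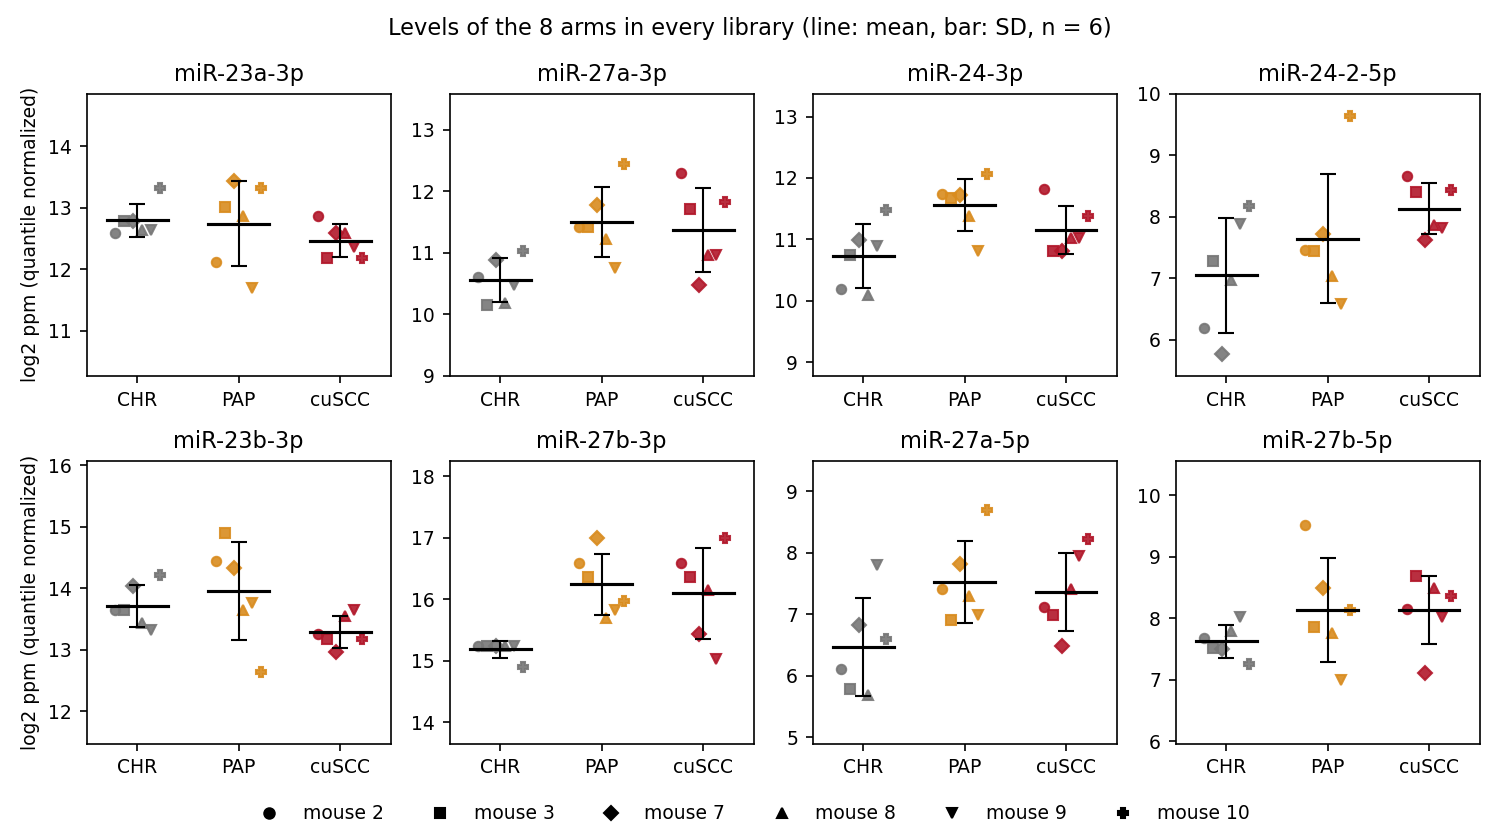
Each panel plots 1 arm, with the log2 ppm of every library on the y axis and the sample type on the x axis. Symbols mark the mouse, lines the mean and bars the SD of 6 libraries, and all y axes have the same length in log2 units but not the same start. The PAP libraries of miR-27b-3p all lie above its CHR libraries, while the sample types overlap for miR-23a-3p and miR-23b-3p.

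In cuSCC against CHR, limma called miR-27b-3p and miR-24-2-5p higher, but these calls depended on the test and the samples, as given below. They are 2 of 8 members, a share near the 20.1% of the tested microRNAs that were called higher in this comparison. The members' median log2 fold change was 0.67, against 0.11 for all tested microRNAs, and 6 of 8 were positive, as were 52.9% of all tested microRNAs. Among microRNAs detected in all 18 libraries the median was 0.22. With these 123 tested alone, limma called 71 in either direction, and 3 of 8 members, all higher. Both comparisons use the same CHR libraries.

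miR-27b-3p differed by 0.91 (log2, SE 0.33, adjusted p = 0.0380 in limma), with 5 of 6 cuSCC libraries above every CHR library. No member had all 6 above, as 9.9% of the tested microRNAs did. The exception was the cuSCC of mouse 9, at 15.03. miR-24-2-5p, the 5p arm of the a cluster's miR-24 hairpin, had a level of 5.77 to 8.17 in CHR (median 7.13), of 6.59 to 9.64 in PAP (median 7.45) and of 7.62 to 8.67 in cuSCC (median 8.13). Its difference was 1.09 (log2, SE 0.41, adjusted p = 0.0437 in limma), with 3 of 6 cuSCC libraries above every CHR library and a higher level in 5 of 6 mice. The 5.77 was the CHR of mouse 7, and it was the lowest value that this library detected. Without mouse 7 the difference was 0.94 (adjusted p = 0.0817 in limma), and the call was also lost without mouse 2, 3 or 8.

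Neither call held when the samples were paired by mouse. With the mouse as a replicate block, 0 of 8 members passed, and the adjusted p in limma was 0.0719 for miR-27b-3p and 0.0509 for miR-24-2-5p. By the exact permutation test 0 of 8 passed as well, with adjusted p of 0.0752 and 0.0634, and without the cuSCC of mouse 10 limma also called 0, with adjusted p of 0.0664 and 0.0635.

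The other members did not pass in cuSCC against CHR. miR-27a-3p differed by 0.82 (log2, SE 0.34, adjusted p = 0.0609 in limma), miR-27a-5p by 0.89 (SE 0.41, 0.0872), miR-27b-5p by 0.51 (SE 0.30, 0.181) and miR-24-3p by 0.42 (SE 0.31, 0.285). Both miR-23 arms had negative values, -0.33 for miR-23a-3p (SE 0.25, 0.289) and -0.42 for miR-23b-3p (SE 0.26, 0.199). At the study's thresholds 3 of 8 members were higher in cuSCC (miR-27b-3p, miR-27a-3p and miR-24-2-5p), against 22.9% of the tested microRNAs.

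In cuSCC against PAP, 0 of 8 members passed in limma, where 11.6% of the tested microRNAs were called in either direction. At an unadjusted p under 0.05 there were also 0, against 83 of the 293 tested microRNAs, and the exact permutation test called 0 of 8 members and 0 of 293 microRNAs. Without the PAP of mouse 10, the unadjusted p in limma was 0.00731 for miR-23b-3p and 0.0123 for miR-24-2-5p, with adjusted p of 0.0609 and 0.0788. The largest difference was that of miR-23b-3p, -0.66 (log2, 95% interval -1.43 to 0.11, adjusted p = 0.252 in limma), which was lower in cuSCC in 5 of 6 mice. For miR-27b-3p the difference was -0.14 (-0.95 to 0.66) and for miR-27a-3p -0.13 (-0.94 to 0.68), intervals that include differences nearly as large as those from CHR. The members' median was -0.15, against 0.21 over all tested microRNAs. Among microRNAs detected in all 18 libraries, as all members were, the median was -0.16, about the same as that of the members.

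**Figure D3:**
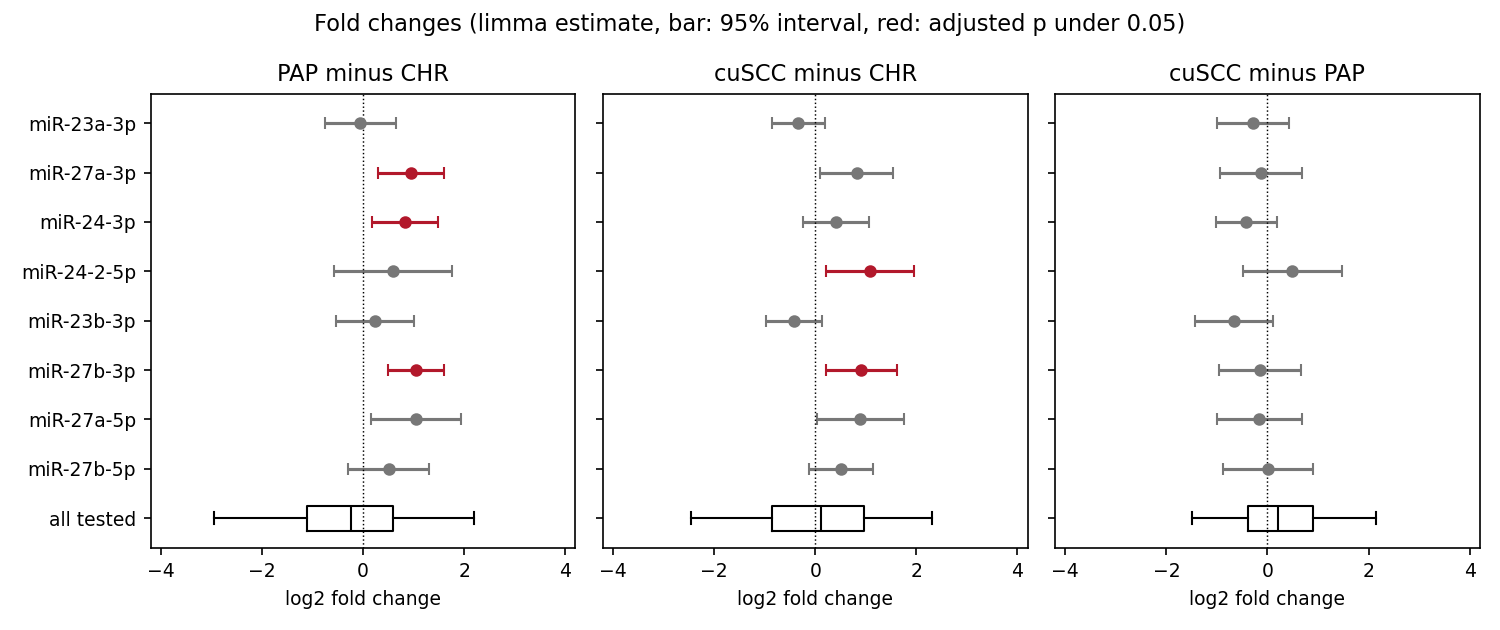
The 3 panels give the log2 fold change of each arm with its 95% interval (x axis) for each comparison, in red where the adjusted p in limma was under 0.05. The box at the bottom shows all 293 tested microRNAs (median, quartiles, and 5th to 95th percentile as whiskers). The red points are miR-27a-3p, miR-24-3p and miR-27b-3p in PAP minus CHR, and miR-24-2-5p and miR-27b-3p in cuSCC minus CHR.

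Differences between members of the same library ask whether cluster neighbours, paralogs and the arms of a hairpin moved together, and 21 such comparisons were made. In the a cluster, miR-27a-3p was below miR-23a-3p in every library, with a difference of -2.64 to -1.90 in CHR (mean -2.24 ± 0.28, SD, n = 6) and of -1.66 to -0.70 in PAP (mean -1.24 ± 0.44). The gap was thus narrower in every PAP library than in any CHR library. The change was 1.0, with an exact two-sided permutation p of 0.00216, the smallest that 6 against 6 libraries allow, and 0.0455 after adjustment over the 21 comparisons. It was the only one of the 21 to pass. In cuSCC the mean difference was -1.09 ± 0.72, and the change from CHR was 1.15 (exact permutation p = 0.00649, adjusted 0.0682).

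In the b cluster, miR-27b-3p was above miR-23b-3p by 1.47 ± 0.45 in CHR, 2.28 ± 0.64 in PAP and 2.80 ± 0.85 in cuSCC. The change from CHR was 0.82 in PAP (exact permutation p = 0.0216, adjusted 0.0909) and 1.33 in cuSCC (0.0108, adjusted 0.0758), with the larger difference in the tumour in 5 of 6 mice both times. Neither passed after adjustment. With the mouse as a block, an exact sign-flip test over 6 mice has a smallest p of 0.0312 and cannot pass over 21 comparisons unless many reach that value, and 0 passed.

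The paralogs kept their distance within the spread. The division of reads between paralogs is uncertain, so shared reads may enter both levels, which was not tested. miR-27a-3p was below miR-27b-3p by -4.63 ± 0.46 in CHR, -4.74 ± 0.65 in PAP and -4.72 ± 0.47 in cuSCC, with exact permutation p between 0.729 and 0.963. miR-23a-3p minus miR-23b-3p was -0.92 ± 0.20 in CHR, -1.21 ± 1.12 in PAP and -0.83 ± 0.37 in cuSCC. In the PAP of mouse 10 alone of the 18 libraries, miR-23a-3p was the higher one.

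Of the hairpins measured through both arms, miR-24-3p exceeded miR-24-2-5p by 3.69 ± 0.83 in CHR, 3.92 ± 0.74 in PAP and 3.02 ± 0.31 in cuSCC. The difference between cuSCC and PAP was -0.90 (exact permutation p = 0.0152, adjusted 0.0795). The 3p arm of Mir24-1 is counted in miR-24-3p too. miR-27a-3p exceeded miR-27a-5p by 4.09 ± 0.71, 3.98 ± 0.29 and 4.01 ± 0.81 in CHR, PAP and cuSCC, and miR-27b-3p exceeded miR-27b-5p by 7.56 ± 0.20, 8.11 ± 0.64 and 7.96 ± 0.61. The 3p arm was the higher one in all 18 libraries for each of the 3 hairpins.

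**Figure D4:**
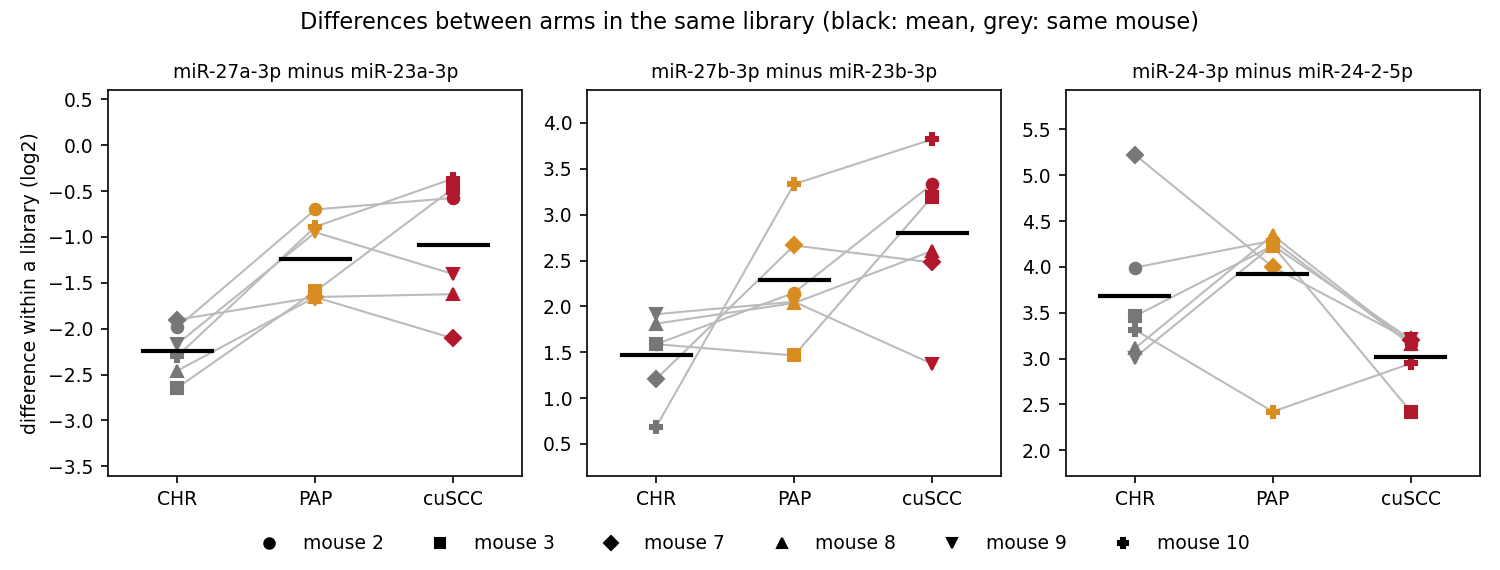
Each panel plots the difference between 2 arms of the same library in log2 units (y axis) by sample type (x axis), with grey lines joining samples of a mouse and black bars for the mean of 6. For miR-27a-3p minus miR-23a-3p every PAP library lies above every CHR library, and for miR-24-3p minus miR-24-2-5p the cuSCC mean of 3.02 is below the PAP mean of 3.92.

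Correlations between members over the 18 libraries are given as descriptions, as the libraries share mice and the normalization, and each is followed by the value for deviations from the sample type means, which leaves out the differences between sample types. miR-27a-3p correlated with miR-24-3p at r = 0.813 (0.738 for the deviations), with its paralog miR-27b-3p at 0.728 (0.510) and with its neighbour miR-23a-3p at 0.248 (0.494). The paralog and the neighbour were thus alike in the deviations. miR-27b-3p correlated with its neighbour miR-23b-3p at 0.0929 (0.170), and the 2 miR-23 arms with each other at 0.143 (-0.0018). For both arms of a hairpin, r was 0.654 (0.577) for miR-27b, 0.685 (0.499) for miR-27a and 0.594 (0.627) for miR-24-3p and miR-24-2-5p.

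Among all tested microRNAs, the one most like miR-27a-3p over the 18 libraries was miR-141-3p (r = 0.917), a member of the epithelial miR-200 family. For miR-27b-3p it was miR-205-3p (0.823), the minor arm of a hairpin whose major arm is an epithelial marker. miR-31-3p was the closest to both miR-27a-5p (0.734) and miR-27b-5p (0.737). For miR-24-2-5p it was miR-15a-5p (0.796), for miR-23a-3p miR-365-3p (0.673) and for miR-23b-3p miR-93-3p (0.754), while for miR-24-3p it was the member miR-27a-3p. To the mean of the 5 members that are 3p arms the closest were miR-31-3p (0.812), miR-429-3p (0.750), miR-141-3p (0.738), miR-200a-3p (0.675) and miR-28a-5p (0.675), of which 3 belong to the miR-200 family. miR-31-3p was detected in 13 of 18 libraries. Its mean level was 3.44 in CHR, near the lowest value of the table, 6.09 in PAP and 5.97 in cuSCC. The correlations of this paragraph include the differences between sample types.

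Marker microRNAs of several cell types differed between sample types, as did many other microRNAs. Of all 293 tested, limma called 95 in PAP against CHR and 124 in cuSCC against CHR in either direction. Those called higher were 14% and 20.1% of all tested, and the counts of markers below should be read beside these. Of 7 epithelial markers, 4 were higher in PAP and 3 in cuSCC than in CHR. The 4 in PAP were miR-200b-3p, miR-200c-3p, miR-141-3p and miR-429-3p, with log2 fold changes of 0.96 to 1.87. The summed level (log2) of all 7 ran from 17.50 to 18.51 in CHR, from 17.77 to 18.55 in PAP and from 17.50 to 18.54 in cuSCC. That sum was mostly miR-205-5p (mean 17.87 in CHR, 18.22 in PAP, 18.08 in cuSCC), so it hardly shows the changes of the others. Both endothelial markers, miR-126-3p and miR-126-5p, were higher in cuSCC than in CHR and in PAP, with a summed level of 7.84 to 9.35 in CHR, from 7.61 to 9.0 in PAP and from 9.26 to 11.17 in cuSCC. In PAP against CHR 0 of 2 were called. Markers of fibroblasts and smooth muscle were lower in PAP (3 of 5), with a summed level of 14.30 to 15.06 in CHR, from 11.02 to 14.04 in PAP and from 12.53 to 15.51 in cuSCC. Skeletal muscle markers were lower in PAP for all 3 tested, with a summed level of 15.44 to 15.98 in CHR, from 5.32 to 12.45 in PAP and from 6.04 to 14.24 in cuSCC. Of the leukocyte markers 2 were lower in PAP, with a summed level of 13.12 to 14.28 in CHR, from 9.03 to 11.82 in PAP and from 11.13 to 12.59 in cuSCC. Among erythroid markers miR-451a was higher in both tumours, and the summed level was 16.69 to 17.84 in CHR, from 16.70 to 18.24 in PAP and from 14.87 to 17.87 in cuSCC. This sum was mostly miR-486-5p (mean 17.12 in CHR, 17.67 in PAP, 15.84 in cuSCC), which was lower in cuSCC than in CHR. In cuSCC against CHR, 1 of 5 fibroblast and smooth muscle markers, 1 of 3 tested muscle markers, 2 of 4 tested leukocyte markers and 1 of 2 tested erythroid markers were lower, and 1 leukocyte marker was higher. In cuSCC against PAP, 2 of 5 fibroblast and smooth muscle markers, 3 of 3 tested muscle markers and 1 of 4 tested leukocyte markers were also higher. There, 1 of 7 epithelial and 1 of 2 tested erythroid markers were lower, and 11.6% of all tested microRNAs were called in either direction. Of the defining markers, miR-144-3p was detected in 0 libraries, miR-1a-3p in 1 and miR-142-3p in 2. The part of these cells in the members' differences was not tested.

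Because the values are ranks, a member also gains when others above it fall. Of 11 entries that stood above miR-27b-3p in every CHR library, 3 did so in every PAP library (miR-191-5p, miR-205-5p and miR-92a-3p), and 1, the muscle marker miR-133a-3p, did so in none. Of the 11, miR-3107-5p had the same mean and range in each sample type as the erythroid marker miR-486-5p. With the 26 marker entries left out of the ranking, which was done after seeing the data, miR-27b-3p ranked 12 to 15 in CHR, from 4 to 10 in PAP and from 3 to 15 in cuSCC. miR-3107-5p is not among those 26 and stayed in that ranking. Entries outside the marker lists also changed place with miR-27b-3p. miR-10b-5p, miR-125a-5p, miR-30d-5p and miR-99b-5p were each above it in 6 of 6 CHR libraries and in 1 of 6 PAP libraries. Of these, miR-10b-5p (log2 fold change -1.70) and miR-125a-5p (-1.21) were called lower in PAP than in CHR in limma. miR-30d-5p (-0.23) and miR-99b-5p (-0.15) were not called.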

How the data were processed

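MicroRNA sequencing of CHR, PAP and cuSCC from 6 mice gave 18 libraries. The authors trimmed adapters, mapped reads to miRBase with BLAST and scaled each microRNA to ppm of usable reads. The deposited values are log2 ppm, and their quantile normalization and lowest value were read from the values themselves. How reads that match several microRNAs were divided is not given in the sources used here. In the values, miR-486-5p and miR-3107-5p had the same log2 fold changes in every comparison, as did miR-199a-3p and miR-199b-3p. Whether a read was counted in full for more than 1 entry was not tested. Depth per library is unknown, so no counting error is given.

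The 293 entries detected in at least 6 libraries were tested in R 4.3.3 with the lmFit and eBayes functions of limma 3.58.1 (two-sided, no block for mouse, adjusted p under 0.05 by Benjamini-Hochberg), and differences between members with exact permutation tests in Python 3.11.15. The test was tested on simulated data. Members, lists and rules for named microRNAs (the members, other arms of their hairpins, and the most correlated microRNAs) were chosen with earlier results of these data known. The numbers pair the samples, since they name the mouse. Their deviations from the group means correlated at 0.025, -0.0676 and 0.0582 on average for PAP and CHR, cuSCC and CHR, and cuSCC and PAP. Alternatives were other filters and lowest values, a 3-type fit, a replicate block, centring, permutation and unmoderated tests, the study's thresholds and each mouse left out. Leaving out the PAP or the cuSCC of mouse 10, and ranking without markers, were added after seeing the data. Coordinates and sequences are from GRCm38 (RefSeq GRCm38.p6), the labels' build being mm10, and the plots were drawn with matplotlib 3.10.9.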

Additional observations from a re-analysis of the deposited data

Results flagged for a closer look

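In 7 of 45 groups of 6 values checked, the highest or lowest sample stood apart from the rest, where chance gives about 1 in 20. In CHR, mouse 10 had the lowest level of miR-27b-3p (14.90, against 15.24 in the other 5) and the highest of miR-23a-3p (13.33). In PAP, mouse 10 had the highest level of miR-24-2-5p (9.64), and its difference between miR-24-3p and miR-24-2-5p, 2.42, was the lowest. The same difference was also lowest, at 2.42, in the cuSCC of mouse 3. The difference between miR-27a-3p and miR-27a-5p was lowest in the CHR of mouse 9 (2.68) and highest in the PAP of mouse 3 (4.52).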

How the results depend on the processing

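In PAP against CHR, miR-27b-3p passed under each of the 18 alternatives run, and 1 to 4 members passed with a mouse left out, miR-27b-3p alone without mouse 2, 3, 7 or 8 and also without the PAP of mouse 10 (1 member). In cuSCC against CHR, 1 member passed with no filter on detection, with all 3 sample types in a fit and in the unmoderated test, 0 with the mouse as a replicate block, in the exact permutation test and without the cuSCC of mouse 10, and 0 to 3 with a mouse left out (0 without mouse 2, 3 or 8, and 1 without mouse 10). In cuSCC against PAP 0 to 0 passed. In PAP against CHR the replicate block ended the call of miR-24-3p, which left 2 members, and it changed no other call of a member's fold change. Of the 21 differences within libraries 0 passed in the replicate block's sign-flip test, and 0 to 0 with a mouse left out, where 5 against 5 libraries can hardly pass. The cause of these changes was not tested, apart from the fewer samples.

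Near-zero values changed sign. Centring gave 0.014 for miR-23a-3p in PAP against CHR and -0.052 for miR-27b-5p in cuSCC against PAP, which was -0.04 without the cuSCC of mouse 10. Without the PAP of mouse 10, cuSCC against PAP was 0.06 for miR-27a-3p and 0.080 for miR-27a-5p. At a lowest value of 100 ppm, miR-27a-3p minus miR-27a-5p changed by 0.30 from CHR to PAP and 0.30 to cuSCC. With a mouse left out, miR-23a-3p in PAP against CHR ran from -0.19 to 0.13, and cuSCC against PAP from -0.38 to 0.14 for miR-27b-3p, -0.19 to 0.29 for miR-27b-5p, -0.33 to 0.10 for miR-27a-3p and -0.38 to 0.08 for miR-27a-5p. In PAP against CHR, cuSCC against CHR and cuSCC against PAP, miR-27a-3p minus miR-27b-3p ran from -0.24 to 0.046, -0.25 to 0.15 and -0.18 to 0.34, and miR-27a-3p minus miR-27a-5p from -0.34 to 0.018, -0.23 to 0.10 and -0.20 to 0.18. miR-23a-3p minus miR-23b-3p ran from -0.064 to 0.23 in cuSCC against CHR, and in cuSCC against PAP miR-27a-3p minus miR-23a-3p ran from -0.045 to 0.27 and miR-27b-3p minus miR-27b-5p from -0.46 to 0.18.

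Setting undetected values to the lowest value that their library did detect moved the median of all tested microRNAs in PAP against CHR from -0.23 to 0.44 and ended the call of miR-24-3p (adjusted p = 0.0590 in limma), though no member was undetected anywhere. Over all tested microRNAs, calls in cuSCC against PAP fell from 34 to 0 in the exact permutation test, 6 in the unmoderated test and 8 with no filter, and were 80 with undetected values so set and 74 at the study's thresholds. Values are ranks within a library of unknown depth, so small differences between abundant members are coarse.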
